A study of Mus musculus with 5 samples.

Results

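Nonclassical (class Ib) MHC class I genes were examined in mouse thyroid tumor cell lines labelled as wild type or as deleted for Ctnnb1, the gene encoding β-catenin. The set held 10 genes of the H2-T and H2-Q regions, H2-T10, H2-T22, H2-T23, H2-T24, H2-Q1, H2-Q2, H2-Q4, H2-Q6, H2-Q7 and Gm8909, out of 17923 genes listed in at least 1 library. They were taken by gene symbol, and the set was drawn up partly because H2-T10 was low in the libraries labelled BVE-Ctnnb1null, so the difference of its members between the genotypes is given as a description without a test. All 10 were listed in at least 1 library, 9 in each library labelled wild type and 10, 7 and 10 in the 3 labelled null.

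The libraries labelled BVE-Ctnnb1wt (2 libraries) came from a tumor cell line driven by BrafV600E, the constitutively active form of the kinase BRAF. Both carried the line name BVE at passage 20, and thyroid-stimulating hormone (TSH) was absent for replicate 1 and present for replicate 2. The libraries labelled BVE-Ctnnb1null (3 libraries) were described as having BrafV600E and a Ctnnb1 deletion and carried the line names BVECTN_4 at passage 8 without TSH, BVECTN_4A at passage 11 and BVECTN_5 at passage 7, the last 2 with no TSH entry. They are called wt and null libraries below. All lines were derived from thyroid tumors of donor mice and established in serum-containing medium with bovine TSH, and the strain, age and sex of the donors and the allele that drives the deletion were not given in the labels. Genotype, cell line and passage cannot be told apart in this design. Both wt libraries carry the same line name and passage, so the spread within wt is between libraries of the same named line that differ in TSH label. The null libraries carry different line names, and the labels do not say whether these lines came from separate animals. The p-values and SDs below therefore measure only the spread between these libraries. Total estimated counts were 30432737 and 30713079 in wt replicates 1 and 2, and 29929677, 29360002 and 29415980 in null replicates 1, 2 and 3. A gene with a count of 0 could have been present at up to 3 counts, or 0.098 to 0.102 CPM (library-scaled counts), which covers counting error only.

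Class I molecules consist of a heavy chain held at the cell surface by β2-microglobulin. The classical heavy chains present peptides to CD8 T cells and are highly polymorphic, whereas the nonclassical ones vary less, are usually less abundant and often serve as ligands of receptors on natural killer (NK) cells and unconventional T cells. H2-T23 encodes Qa-1, which displays leader peptides of other class I chains to the CD94/NKG2 receptors of NK cells, the products of H2-T22 and of functional H2-T10 alleles are ligands of γδ T cell receptors, and H2-Q7 encodes a form of the Qa-2 antigen. In mice these genes lie in arrays of close duplicates on chromosome 17, and inbred strains carry different sets of them.

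The close duplicates bear on every value given here, because a read can fit more than 1 gene. Among the annotated transcripts of GENCODE vM21, 31.7% of the distinct 50-base words of H2-T10 were also present in H2-T22, and 50.4% were present in some other gene. Over a coding alignment of 1027 bases, H2-T10 and H2-T22 were identical at 993 (96.7%), with identical runs of up to 128 bases. The stretch with the most differences, coding bases 665 to 724 of H2-T22, is shown. Only reads over such bases assign counts to one gene or the other. The word shares, the alignment and this stretch use GENCODE sequences. The RefSeq entry that held most H2-T10 counts in the wt libraries had no match there, so its own bases were not compared. Capitals mark the 7 bases at which the sequences differ.
H2-T22: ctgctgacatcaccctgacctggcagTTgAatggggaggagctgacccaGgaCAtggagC
H2-T10: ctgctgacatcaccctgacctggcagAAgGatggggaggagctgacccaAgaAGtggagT
For H2-T22 the share of 50-base words found in any other gene was 53.5%, for H2-Q4 36.4%, for H2-Q6 35%, for H2-Q7 26.5% and for Gm8909 26.4%. The shares for H2-Q2, H2-Q1 and H2-T23 were 16.1%, 15% and 14.5%, and that for H2-T24 was 3.17%. All members, H2-T24 least, therefore carry an uncertainty of read assignment that replicate spread does not show.

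**Figure D1:**
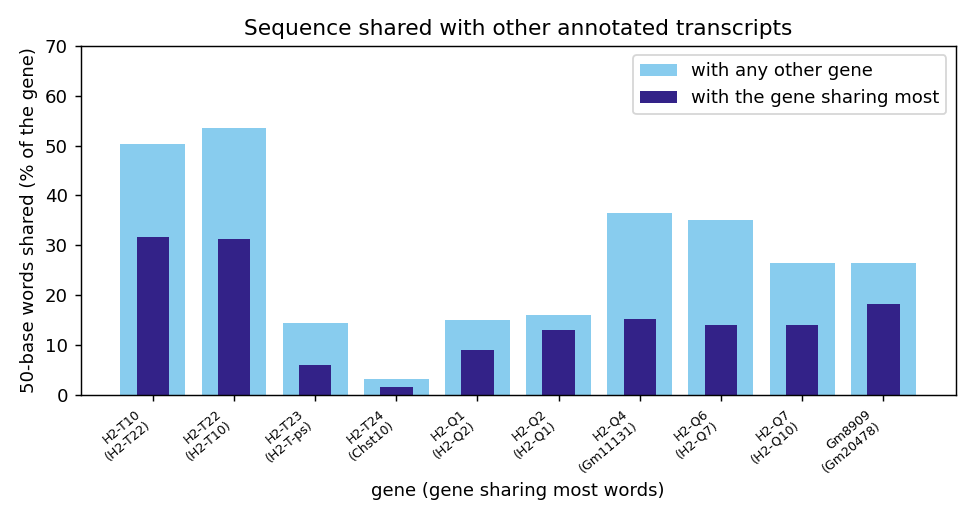
Percent of the distinct 50-base words of each gene's GENCODE vM21 transcripts that occur in transcripts of any other gene (wide bars) and of the single gene that shares most (narrow bars, named in brackets). H2-T22 and H2-T10 shared the most, 53.5% and 50.4%, and H2-T24 the least, 3.17%.

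Class I promoters are known for a conserved arrangement of an interferon-stimulated response element (ISRE) and a set of upstream boxes ending in a CCAAT sequence. RefSeq promoter sequences of the GRCm38.p6 build were matched for 7 of the 10 genes, and H2-T10, H2-T24 and H2-Q1 had no entry. The 250 bases before the start site were searched on both strands for AGTTTC followed after any 2 bases by TT (an ISRE core) and for CCAAT, 2 letter strings that do not overlap each other, chosen after the sequences were seen. The ISRE core was present in 4 of the 7 (H2-T22, H2-Q4, H2-Q6 and H2-Q7) against 1.48% of 32851 promoters, and CCAAT in 7 of 7 against 33.8%. A pair with the ISRE core and a pair without it are shown, with matches of both strings in capitals (ATTGG is CCAAT on the other strand). The lines give H2-T22 at chr17:36042743-36042992 and H2-T23 at chr17:36032702-36032951 on the minus strand, H2-Q4 at chr17:35379367-35379616 on the plus strand, and Gm8909 at chr17:36168538-36168787 on the minus strand.
H2-T22: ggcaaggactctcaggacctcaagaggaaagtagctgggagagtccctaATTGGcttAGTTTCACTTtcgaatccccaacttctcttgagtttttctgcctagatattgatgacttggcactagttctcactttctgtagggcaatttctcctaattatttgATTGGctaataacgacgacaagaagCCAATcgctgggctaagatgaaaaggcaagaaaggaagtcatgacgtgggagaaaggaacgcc
H2-Q4: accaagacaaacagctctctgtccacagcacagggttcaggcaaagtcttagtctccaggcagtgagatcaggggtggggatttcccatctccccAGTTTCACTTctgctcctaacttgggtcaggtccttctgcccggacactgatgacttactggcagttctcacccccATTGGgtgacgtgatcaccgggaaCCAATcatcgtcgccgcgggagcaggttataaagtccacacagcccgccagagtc
H2-T23: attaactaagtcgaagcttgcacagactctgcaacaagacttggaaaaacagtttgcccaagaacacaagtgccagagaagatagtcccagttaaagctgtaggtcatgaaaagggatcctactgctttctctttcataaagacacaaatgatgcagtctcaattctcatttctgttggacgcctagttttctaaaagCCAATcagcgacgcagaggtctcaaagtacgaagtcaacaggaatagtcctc
Gm8909: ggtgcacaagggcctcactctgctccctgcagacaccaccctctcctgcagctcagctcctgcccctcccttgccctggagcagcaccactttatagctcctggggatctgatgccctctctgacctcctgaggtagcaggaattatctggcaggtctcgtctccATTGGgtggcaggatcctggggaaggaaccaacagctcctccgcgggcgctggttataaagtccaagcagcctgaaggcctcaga
The ISRE core lay 193 bases before the start in H2-T22 and 155 before it in H2-Q4. These matches are descriptions of letters and not of bound sites.

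The deleted gene and the labelled cell type were checked first. Ctnnb1 had an FPKM (fragments scaled to transcript length and library total, the authors' value) of 59.29 and 73.75 in wt replicates 1 and 2 and of 124.58, 196.26 and 117.82 in null replicates 1, 2 and 3. It was higher in every null library and so went against the labels, although a count summed over the whole gene does not resolve which exons were deleted. After TMM scaling (a correction for differences in RNA composition between libraries) the groups overlapped. The log2 fold change was 0.55 (standard error 0.44, edgeR quasi-likelihood test, Benjamini-Hochberg adjusted p = 0.516). The TMM factors were 0.8424 and 0.7351 in wt replicates 1 and 2 and 1.085, 1.221 and 1.219 in null replicates 1, 2 and 3. This scaling lowers null values relative to wt. The edgeR log2 fold changes therefore tend to lie below the ratios of FPKM or of CPM on library totals. All directions below are between libraries as labelled.

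All 9 thyroid follicular markers were listed, several of them at or near 0. Tg, the thyroglobulin gene, had 211, 230, 10, 128 and 86 counts in wt replicates 1 and 2 and null replicates 1, 2 and 3, and Foxe1 and Duox2 were among those at or near 0. Nkx2-1, a transcription factor of thyroid cells, had an FPKM of 9.21, 15.02, 9.26, 34.83 and 0.26 in the same order, so null replicate 3 was almost without it. Pax8, another such factor, was higher in every null library, opposite to Tg. Its FPKM was 0.40 and 0.17 in wt replicates 1 and 2 and 18.15, 12.78 and 2.56 in null replicates 1, 2 and 3 (log2 fold change 4.75, standard error 1.09, edgeR adjusted p = 0.179). Null replicate 3 stood apart in fibroblast markers as well, whose 8 genes, led by the collagen gene Col1a1, summed to an FPKM of 220, 177, 1.7, 141 and 1220. In that library the fibroblast genes Dcn, Thy1 and Postn had 4686, 4571 and 9617 counts. Null replicate 1 stood apart in epithelial markers, with a summed FPKM of 12100 mostly from the keratin genes Krt7 (5130.95), Krt18, Krt19 and Krt8, against 1070, 1740, 706 and 1200 in wt replicates 1 and 2 and null replicates 2 and 3. Null replicate 2 had 0 counts of the epithelial adhesion genes Epcam and Cdh1, which had 224 to 319 counts in the wt libraries and at least 2756 in null replicates 1 and 3. Of the 15 leukocyte markers 9 were listed, with a summed FPKM of 7.49, 16.3, 60.2, 1.3 and 41.0, mostly from the lysosomal gene Cd68. Ptprc, Cd3e, Ncr1, Ms4a1 and Adgre1, which define leukocytes, T cells, NK cells, B cells and macrophages, were listed in no library. Cd79a, a B cell receptor component, had 31 and 24 counts in wt replicates 1 and 2 and 7, 1 and 1 in null replicates 1, 2 and 3, so it was low throughout and lower in the null libraries (log2 fold change -3.61, edgeR adjusted p = 0.223). The monocyte and granulocyte gene Lyz2 also lay below both wt libraries in every null library after TMM scaling (log2 fold change -2.35, edgeR adjusted p = 0.36). The 5 endothelial markers summed to an FPKM of at most 0.68, in null replicate 3. The part of these marker differences in the results below was not tested except where values without a library are given. In such bulk libraries, fewer cells of a type and less RNA per cell cannot be told apart.

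H2-T23 and H2-T22 were the most abundant of the 10 genes in every library and together made up 64.9% and 67.3% of the summed FPKM of the 10 genes in wt replicates 1 and 2, and 92.4%, 83.6% and 95.1% in null replicates 1, 2 and 3. Behind them came H2-T10 and H2-Q4, at 12.20 to 17.31 FPKM in the wt libraries, then Gm8909 and H2-Q2, H2-Q7 and H2-Q1, and last H2-T24 and H2-Q6. In the null libraries H2-T10, H2-Q1, H2-Q2, H2-Q4, H2-Q7 and Gm8909 were lower than in both wt libraries, so was H2-T23 by a narrower margin, and H2-T22 overlapped. The number of the 10 genes with an FPKM of at least 1 was 7 and 7 in wt and 4, 3 and 4 in the null libraries. The summed FPKM of the 10 was 105 and 129 in wt replicates 1 and 2 against 77.6, 56.5 and 138 in null replicates 1, 2 and 3, so the total overlapped while its makeup differed.

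**Figure D2:**
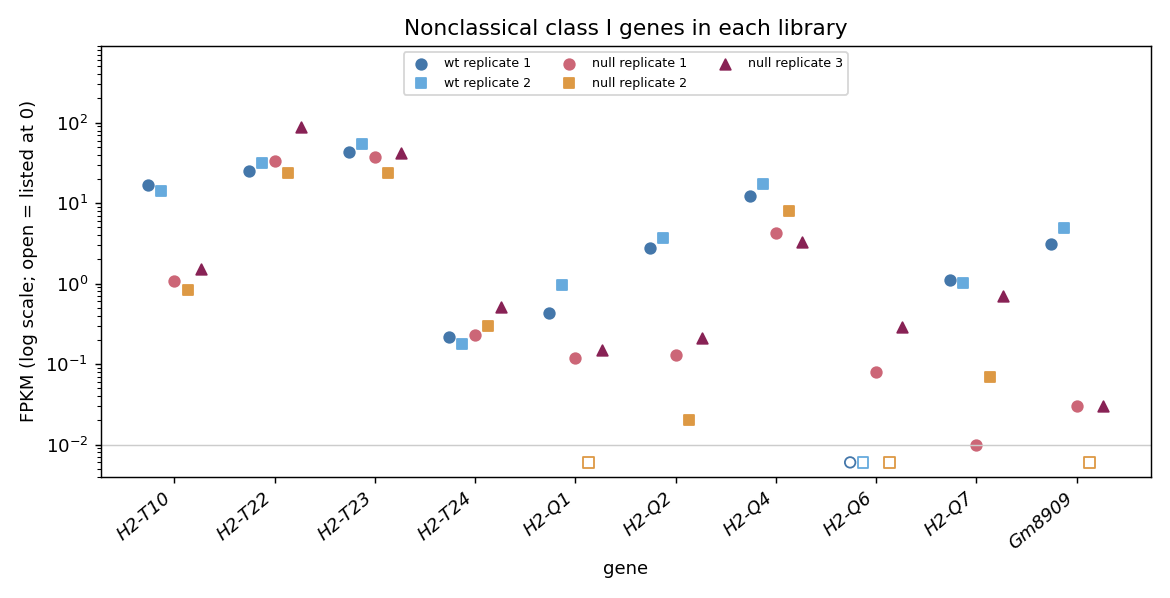
FPKM of the 10 nonclassical class I genes in each of the 5 libraries (log axis; 1 symbol per library; open symbols below the line at 0.01 are genes listed at 0). H2-T10, H2-Q1, H2-Q2, H2-Q4, H2-Q7 and Gm8909 lie lower in all 3 null libraries than in both wt libraries, H2-T23 narrowly so, while H2-T22 overlaps and reaches 89.66 in null replicate 3.

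H2-T10 (gene 15024, a transcribed pseudogene in the RefSeq table of the C57BL/6J reference) separated the groups widely. Its FPKM was 16.98 and 14.01 in wt replicates 1 and 2 and 1.09, 0.83 and 1.54 in null replicates 1, 2 and 3, on 1499.5, 1249.7, 95.0, 71.0 and 132.5 estimated counts. The 3 null libraries lay close together and far below both wt libraries, by 14.2-fold, 18.6-fold and 9.98-fold in CPM against the wt mean. The mean FPKM was 15.5 ± 2.10 (SD, n = 2) and 1.15 ± 0.359 (SD, n = 3), and the edgeR log2 fold change was -4.30 (standard error 0.52). From the summed counts, rounded in each library, the wt libraries held 13.3 times as much per count sequenced (exact Clopper-Pearson 95% interval 11.8 to 15.1). The interval covers counting error only and leaves out read assignment and library spread. It is no test, since the set was drawn up partly on this difference.

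The remaining H2-T10 counts lay on another transcript entry. H2-T10 was listed under 2 RefSeq entries, NM_010395 and NR_046286. The first had 1463.39 and 1224.79 counts in wt replicates 1 and 2 and 6.06, 4.44 and 9.97 counts in null replicates 1, 2 and 3. The second had 36.12 and 24.87 in wt and 88.89, 66.58 and 122.57 in the null libraries. The entries thus moved in opposite directions, and neither overlapped between the groups. NM_010395 took 97.6% (Wilson 95% interval 96.7 to 98.3) and 98.0% (97.1 to 98.6) of the counts in the wt libraries. In the null libraries it took 6.38% (2.97 to 13.2), 6.25% (2.57 to 14.4) and 7.52% (4.13 to 13.3). Counts were divided between the entries by estimation, and the part of read assignment in this split was not tested. NR_046286 was matched by accession to a GENCODE transcript of H2-T10, and NM_010395 had no match there.

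**Figure D3:**
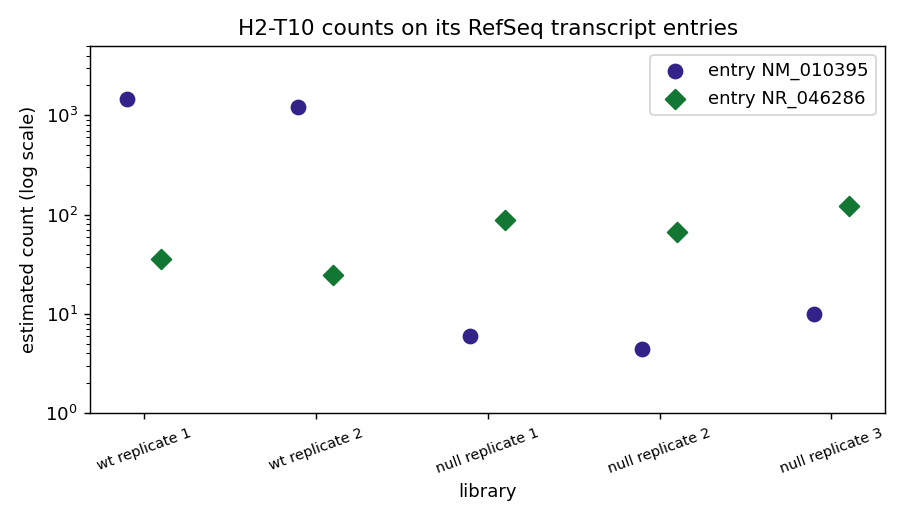
Estimated counts of H2-T10 on each of its 2 RefSeq transcript entries in the 5 libraries (log axis, 1 point per entry and library). NM_010395 lies above 1000 in both wt libraries and at or below 9.97 in the null libraries, while NR_046286 lies between 24.87 and 122.57 throughout and is higher in the null libraries.

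H2-T22 (gene 15039), the gene that shares most words with H2-T10, did not share its pattern. Its FPKM was 25.26 and 31.75 in wt replicates 1 and 2 and 33.90, 23.74 and 89.66 in null replicates 1, 2 and 3. Null replicates 1 and 2 lay close to the range of the wt libraries, and null replicate 3 lay far above every other library, at 3.13 times the wt mean in CPM and 3.78 times null replicate 2. The means were 28.5 ± 4.59 (SD, n = 2) and 49.1 ± 35.5 (SD, n = 3), and the log2 fold change was 0.17 (standard error 0.64). It was -0.59 without null replicate 3. That library was also the one with the high fibroblast and low Nkx2-1 values, and their part in the H2-T22 level was not tested.

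H2-T23 (gene 15040), which encodes Qa-1, was lower in the null libraries by a narrow margin in FPKM and a wider one after TMM scaling. Its FPKM was 42.65 and 54.70 in wt replicates 1 and 2 and 37.74, 23.48 and 41.50 in null replicates 1, 2 and 3. All null values were below both wt values, but null replicates 1 and 3 lay within 5 FPKM of wt replicate 1. The means were 48.7 ± 8.52 (SD, n = 2) and 34.2 ± 9.51 (SD, n = 3), and the log2 fold change was -1.10 (standard error 0.47). The ratio of H2-T23 to H2-T22 in FPKM was 1.69 and 1.72 in wt replicates 1 and 2 against 1.11, 0.989 and 0.463 in null replicates 1, 2 and 3, so the genes were about equal in null replicate 2 and in the opposite order in null replicate 3. H2-T24 (gene 15042) was close to the limit of detection, with an FPKM of 0.22 and 0.18 in wt and 0.23, 0.30 and 0.51 in the null libraries on 12.2 to 32.6 counts. It was above both wt libraries in every null library in FPKM and overlapped after TMM scaling, and its log2 fold change was 0.21 (standard error 0.94).

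H2-Q4 (gene 15015), which encodes the Qb-1 antigen, was the most abundant H2-Q gene. Its FPKM was 12.20 and 17.31 in wt replicates 1 and 2 and 4.24, 8.06 and 3.27 in null replicates 1, 2 and 3. No null library reached either wt library, and null replicate 2 came nearest. The wt mean in CPM was 3.5-fold, 1.84-fold and 4.53-fold above null replicates 1, 2 and 3. The mean FPKM was 14.8 ± 3.61 (SD, n = 2) and 5.19 ± 2.53 (SD, n = 3), and the log2 fold change was -2.12 (standard error 0.57).

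H2-Q1 (gene 15006), H2-Q2 (gene 15013) and Gm8909 (gene 667977) were nearly silent in the null libraries. H2-Q2 had an FPKM of 2.74 and 3.72 in wt replicates 1 and 2 and of 0.13, 0.02 and 0.21 in null replicates 1, 2 and 3, and its log2 fold change was -5.25 (standard error 1.06). Its summed counts were 216 against 12, a ratio per count sequenced of 26.1 (exact Clopper-Pearson interval 14.6 to 51.3). Gm8909 had an FPKM of 3.08 and 4.86 in wt libraries and of 0.03, 0 and 0.03 in the null libraries. No library lay between, and the summed counts of Gm8909, rounded in each library, were 330 against 2, a ratio per count sequenced of 239 (exact Clopper-Pearson interval 65.7 to 1980). The unrounded estimates gave a ratio of mean CPM of 197. Against null replicate 2, where Gm8909 was listed at 0, the wt mean was at least 52.8-fold higher in CPM with a floor of 3 counts in that library. H2-Q1 had an FPKM of 0.43 and 0.96 in wt and of 0.12, 0 and 0.15 in the null libraries, with 88 against 16 summed counts, and its log2 fold change was -3.56 (standard error 1.44). The fitted log2 fold change of Gm8909, -8.22 (standard error 1.16), depends on the prior count of the fit and is no bound. By limma on log2(FPKM + 1) it was -2.26.

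H2-Q7 (gene 15018) varied widely among the null libraries. Its FPKM was 1.12 and 1.03 in wt replicates 1 and 2 and 0.01, 0.07 and 0.71 in null replicates 1, 2 and 3. Null replicate 3 thus lay nearer to the wt libraries than to the other null libraries, on 23.3 counts against 0.5 and 3.3. The log2 fold change was -2.66 (standard error 1.56), but -5.08 without null replicate 3 and -0.76 by limma on log2(FPKM + 1). H2-Q6 (gene 110557), another gene of the Qa-2 group, was listed at 0 in both wt libraries and in null replicate 2 and had 2.2 and 8.2 counts in null replicates 1 and 3. It was the 1 member that did not pass the filter on low counts. H2-Q6 shared 13.9% of its words with H2-Q7.

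Counted over the 9 members that passed, 7 had every null library below both wt libraries in CPM after TMM scaling (H2-T10, H2-T23, H2-Q1, H2-Q2, H2-Q4, H2-Q7 and Gm8909), where 17.2% of all 13217 genes tested did so. The members were chosen on this contrast, and nothing is read from that count. In FPKM as deposited 7 did so beside 7.23% of all genes, and in CPM on library totals 7 beside 7.43%. H2-T24 alone had every null library above both wt libraries, in FPKM beside 35.9% and in CPM beside 36.2%. After TMM scaling none did so, beside 22.6%. The median log2 fold change of the 9 was -2.66 and that of all genes tested 0.29. The median of the members was -1.07 over those with at least 10 counts in every library. By limma on log2(FPKM + 1) it was -1.40, over the 7 members fitted there. Without null replicate 3 it was -4.16. With the replicate number as a block, a fit that also takes no null effect from null replicate 3, it was -4.54. The median of all genes was 0.21 with DESeq2. On log2(FPKM + 0.1) it was 0.61, over 11888 genes, where both the scale and the genes fitted differed. Summing the estimated counts of the region's genes takes away the effect of reads divided among the genes summed. The 4 H2-T genes summed to 4583 and 5203 counts in wt and 3373, 2219 and 6412 in the null libraries, at a log2 fold change of -0.83 (standard error 0.54), and overlapped. The 5 H2-Q genes summed to 827 and 1183 counts in wt and 241, 429 and 220 in the null libraries and did not overlap, and their log2 fold change was -2.31 (standard error 0.53).

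The null lines differed from each other within this set. Against the wt mean in CPM, null replicate 1 had 6 of 9 members lower by over 2-fold, beside 14.4% of genes with at least 10 counts in a library compared, and none higher, beside 39.6%. Null replicate 2 had 6 lower and none higher, beside 12.7% and 42.0%, and null replicate 3 had 5 lower and 2 higher, beside 10.8% and 44.5%. H2-T10, H2-Q1, H2-Q2 and Gm8909 were lower by over 2-fold in all 3. H2-T23 passed 2-fold in null replicate 2 alone, H2-Q4 in null replicates 1 and 3, and H2-Q7 in null replicates 1 and 2, while H2-T22 and H2-T24 were over 2-fold higher in null replicate 3. After TMM scaling H2-T24 no longer passed there, H2-Q4 passed in null replicate 2 and H2-Q7 in null replicate 3. The share of all genes lower in all 3, or past 2-fold after TMM scaling, is not given here, so nothing is read from these calls. The difference between the null lines was not tested, since each was 1 library.

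The wt libraries, which differed in their TSH label, showed small differences in the same genes. From replicate 1 (no TSH) to replicate 2 (TSH) CPM changed 0.826-fold for H2-T10, 1.26-fold for H2-T22, 1.28-fold for H2-T23, 1.42-fold for H2-Q4 and 1.58-fold for Gm8909. H2-Q1 was the only member past 2-fold, at 2.25-fold higher on 26.7 and 60.6 counts, where 18.8% of 12506 genes were past 2-fold in either direction. This pair had no replicate check.

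The genes nearest to each member over the 5 libraries were found by a distance. By Euclidean distance between centred log2(CPM + 1) values after TMM scaling, among 13216 genes, those nearest to H2-T10 were Acp5, which encodes tartrate-resistant acid phosphatase, at 0.417, As3mt, an arsenic methyltransferase, at 0.683 and Ccdc8 at 0.794. Acp5 had 619, 542, 14, 1 and 17 counts in wt replicates 1 and 2 and null replicates 1, 2 and 3. The gene nearest to H2-T22 was Loxl1, a lysyl oxidase of the extracellular matrix (distance 0.27), with 4245, 5457, 4762, 3629 and 11841 counts, and so with the same high value in null replicate 3. Pebp1 was nearest to H2-T23 (0.105), Phykpl to H2-T24 (0.0687), Cops9 to H2-Q1 (0.112), Gm53 to H2-Q2 (0.314), Dnajc22 to H2-Q4 (0.233), Znrd1 to H2-Q7 (0.117) and Apod, an apolipoprotein gene, to Gm8909 (0.398). The 1 added to CPM flattens low counts, in the members (H2-T24, H2-Q1 and H2-Q7) and in their neighbours (Acp5 in null libraries, Dnajc22), so a small distance does not mean a like fold. Cops9, for example, had 1882, 2880, 1381, 1347 and 1568 counts, a smaller relative difference than that of H2-Q1.

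The other nonclassical class I genes were mostly low. Of 40 genes in that list 22 were listed and 10 tested, 8 with a negative and 2 with a positive log2 fold change (median -0.74), and 3 had every null library below both wt libraries after TMM scaling, beside 17.2% of all genes. None was called by edgeR at an adjusted p of 0.05, nor was any of the 13217 genes tested (0%), although 1646 genes were higher and 803 lower at an unadjusted p under 0.05. DESeq2 called 2 of the list lower, where it called 3.72% of 13105 genes lower and 8.50% higher. H2-Bl, a class I gene described in blastocysts, had 199.7 and 223.0 counts in wt replicates 1 and 2 and 7.2, 0 and 1.1 in null replicates 1, 2 and 3 (log2 fold change -6.72, standard error 1.43, edgeR adjusted p = 0.179). Like Gm8909, H2-Bl thus had almost all of its counts in the wt libraries. H2-T-ps, a gene that shares words with H2-T23 and was singled out after its values were seen, had 348.6 and 500.5 counts in wt and 87.7, 40.3 and 44.4 in the null libraries (log2 fold change -3.41, edgeR adjusted p = 0.179). H2-Q9, which also encodes Qa-2, had 48.0 and 40.4 counts in wt and 4.7, 0 and 3.4 in the null libraries (log2 fold change -4.46, edgeR adjusted p = 0.196). Gm11127, also singled out after its values were seen, had higher values in every null library, with 18.3 and 19.5 against 43.0, 36.1 and 116.9 counts. H2-M3, which presents formylated peptides, overlapped between the groups, with an FPKM of 16.28 and 11.37 in wt and 5.72, 8.54 and 20.69 in the null libraries. Procr, the endothelial protein C receptor, had an FPKM of 49.48 and 55.91 against 42.94, 17.72 and 29.66 (edgeR adjusted p = 0.245), and Fcgrt, the neonatal Fc receptor, one of 26.98 and 39.33 against 2.52, 13.58 and 48.33 (edgeR adjusted p = 0.516).

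The classical heavy chains H2-K1 and H2-D1 were together more abundant than the 10 nonclassical ones. The pair had an FPKM of 562 and 520 in wt replicates 1 and 2 and of 333, 182 and 288 in null replicates 1, 2 and 3, which was 5.37, 4.05, 4.3, 3.22 and 2.09 times the sum of the 10 nonclassical genes. All 4 classical genes tested had a negative log2 fold change and every null library below both wt libraries after TMM scaling, beside 17.2% of all genes. In FPKM 3 did so, beside 7.23%, since H2-K1 in null replicate 1 lay between the wt libraries. None was called by edgeR, and 3 were called lower by DESeq2, beside 3.72%. H2-L had an FPKM of 145.89 and 137.89 in wt libraries and of 0, 0.06 and 0 in the null libraries (edgeR adjusted p = 0.0847, the lowest in these lists), and it has no entry in the RefSeq table of the C57BL/6J reference. H2-K2, a neighbour of H2-K1, had an FPKM of 3.28 and 5.86 in wt and of 0.30, 0.03 and 0.55 in the null libraries. The labels give no strain or H2 haplotype for either genotype, and whether the lines differ in the class I genes they carry was not tested.

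**Figure D4:**
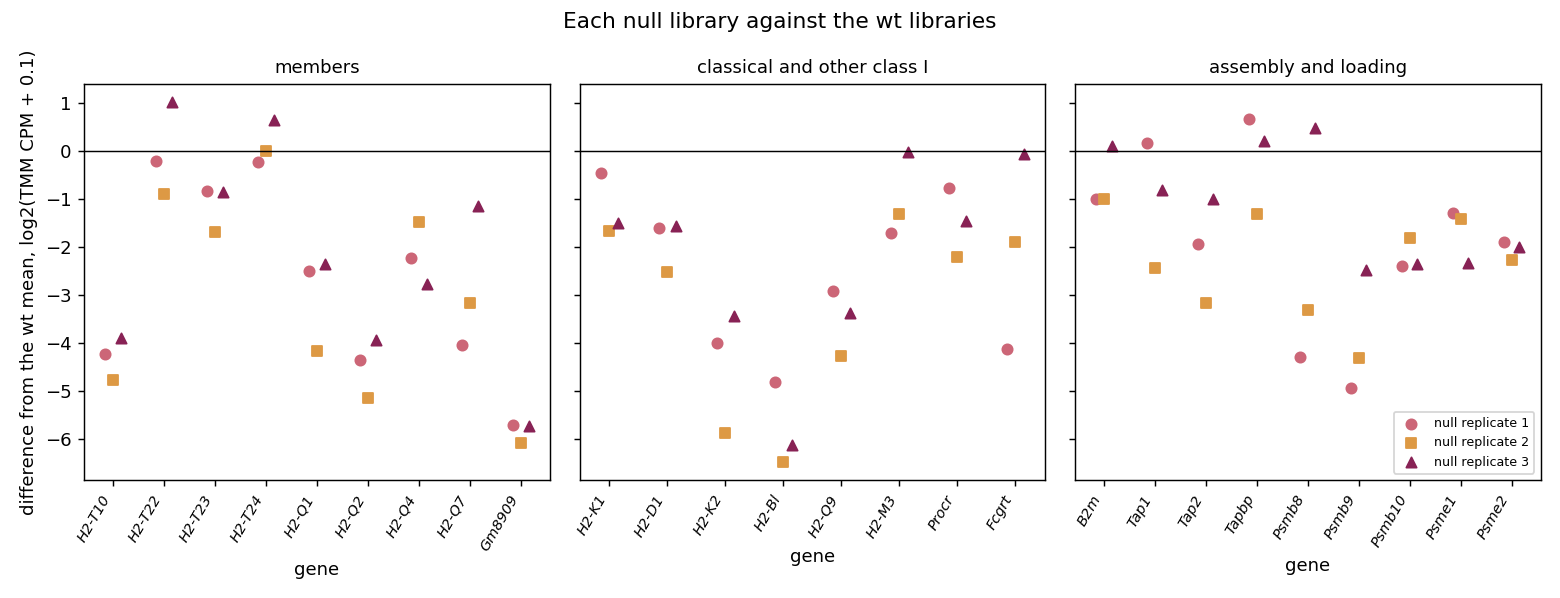
Difference of each null library from the mean of the 2 wt libraries on log2(TMM CPM + 0.1), for the 9 nonclassical genes that passed the filter on low counts (left), classical and other class I genes (middle; H2-L is not drawn) and genes of class I assembly and peptide loading (right); the line marks no difference. The points of H2-T22 and of Tapbp straddle the line, and all those of H2-T10, H2-D1, Psmb10 and Psme2 lie below it.

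Genes that assemble class I molecules and load their peptides were compared next. Of the 15 tested, 12 had a negative and 3 a positive log2 fold change (median -0.67, and -0.11 by limma on log2(FPKM + 0.1)). After TMM scaling 5 had every null library below both wt libraries, beside 17.2% of all genes, and the other 10 overlapped. None was called by edgeR, and DESeq2 called 4 lower, beside 3.72%. Psme2, a subunit of the PA28 proteasome activator, had an FPKM of 182.01 and 219.01 in wt and of 74.49, 65.03 and 77.57 in the null libraries (log2 fold change -2.07, standard error 0.40, edgeR adjusted p = 0.179). The immunoproteasome genes Psmb10 and Psmb9 had log2 fold changes of -2.38 (standard error 0.60, edgeR adjusted p = 0.189) and -4.13 (standard error 1.23, edgeR adjusted p = 0.194). Psmb9 had an FPKM of 2.99 and 10.94 in wt and of 0.13, 0.30 and 1.47 in the null libraries. The groups were apart for these 3 genes. Psmb8, the other immunoproteasome subunit, overlapped, with an FPKM of 2.96 and 8.53 in wt and of 0.28, 0.70 and 11.03 in the null libraries. B2m, the shared light chain, had an FPKM of 572.71 and 896.63 in wt and of 493.09, 558.88 and 1195.14 in the null libraries. The groups overlapped for B2m (log2 fold change -0.60, standard error 0.53, edgeR adjusted p = 0.559). Without TMM scaling its mean CPM in the null libraries was 1.01 times that in wt. Like H2-T22, B2m was highest in null replicate 3. The peptide transporter genes Tap1 and Tap2 had log2 fold changes of -0.78 (standard error 0.78, edgeR adjusted p = 0.605) and -1.81 (standard error 0.70, edgeR adjusted p = 0.246), and Tapbp, the tapasin gene, one of -0.01 (standard error 0.66).

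Regulators of class I transcription and interferon signalling had mostly positive log2 fold changes. Of 21 genes, 16 had a positive and 5 a negative log2 fold change (median 0.58, all genes 0.29), and 10 had every null library above both wt libraries after TMM scaling, beside 22.6% of all genes, or 15 in FPKM, beside 35.9%. None was called by edgeR, and DESeq2 called 2 higher, beside 8.50%, and 1 lower, beside 3.72%. Irf1, an activator of class I genes that binds the ISRE, had an FPKM of 35.59 and 53.46 in wt and of 19.69, 8.15 and 19.64 in the null libraries (log2 fold change -2.08, standard error 0.56, edgeR adjusted p = 0.190). Irf2, which binds the same element, had an FPKM of 2.09 and 1.87 in wt and of 9.83, 8.84 and 8.99 in the null libraries (log2 fold change 1.64, standard error 0.50, edgeR adjusted p = 0.199). The groups were thus apart in opposite directions for Irf1 and Irf2. Jak1, a kinase of interferon receptors, showed a log2 fold change of 1.50 (standard error 0.50, edgeR adjusted p = 0.215). Nlrc5, the class I transactivator, was close to the limit of detection, with 8, 6, 13, 19 and 20 counts. Among genes with an ISRE core in the promoter, H2-Q4 and H2-Q7 were lower in all null libraries and H2-T22 overlapped. H2-Q6, also with the core, had counts only in null replicates 1 and 3. Gm8909, H2-Q2 and H2-T23, without the core, were also lower in all null libraries. The part of Irf1 and Irf2 in these values was not tested.

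Genes of the class I region that do not belong to the family were divided between both directions. Of the 26 tested, 12 had a positive and 14 a negative log2 fold change (median -0.13, but 0.31 by limma on log2(FPKM + 0.1)), with 5 lower and 1 higher in every null library after TMM scaling, beside 17.2% and 22.6% of all genes. In FPKM this turned to 1 lower and 6 higher, beside 7.23% and 35.9%. None was called by edgeR, and DESeq2 called 1 higher, beside 8.50%. Ddr1, a collagen receptor kinase, had an FPKM of 12.96 and 17.87 in wt and of 96.09, 28.06 and 25.39 in the null libraries (log2 fold change 1.16, standard error 0.76, edgeR adjusted p = 0.436). Ppp1r11 and Zfp57 had log2 fold changes of -1.11 (standard error 0.40, edgeR adjusted p = 0.229) and -1.08 (standard error 0.49, edgeR adjusted p = 0.294). Of 13 receptor genes that recognize nonclassical class I molecules 5 were listed, with a summed FPKM of at most 1.21, in null replicate 1.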

How the data were processed

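Total RNA of 5 libraries was sequenced from TruSeq libraries. For every RefSeq transcript of a library the authors deposited an estimated count (expected count, not always whole) and an FPKM, listed from 0.01 upward. Aligner, counter, genome build and annotation are not given in the sources used here. Both values were added up by NCBI gene, a gene that was not listed counted as 0, and counts were rounded for the fits. Of 17923 genes 17866 were named by the RefSeq table, and H2-L from the gene table of the study. The number of other per-sample columns left unused was 0. Depth was 29360002 to 30713079 counts per library.

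Samples were grouped by title. The comparison of null with wt libraries was fitted over 13217 genes with edgeR 4.0.16 in R 4.3.3 (TMM, filterByExpr, quasi-likelihood test, Benjamini-Hochberg over all genes, threshold 0.05). It was repeated with DESeq2 1.42.0, unfiltered, restricted to genes that had 10 counts or more in all libraries, with limma 3.58.1 on log2(FPKM + 0.1, 0.01 or 1) where 2 libraries had 0.5 FPKM or more, with each library left out, and with the replicate number as a block. The fits were tested on simulated data. Single libraries were compared by ratios with a 2-fold threshold at a minimum of 10 counts. Intervals are 95% and cover counting error only, not read assignment, and those on members are no test of a difference. Python 3.11.15, pandas 2.3.3, scipy 1.17.1 and Biopython 1.88 were used, with GENCODE vM21 transcripts and RefSeq promoters of GRCm38.p6.

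The members and the gene lists were chosen with earlier results of these data known. Named were all members, Ctnnb1, 14 fixed class I and antigen presentation genes, in each of 5 lists the 3 genes with the largest change at a mean FPKM of at least 5 in one group, and the genes nearest to each member. Some genes outside this rule are named as list members, or are said to be picked on their values. Experiments in mice, cytotoxicity assays and overexpression clones were not analysed here, and a few genes of the rule and of the marker lists are not reported here.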

Additional observations from a re-analysis of the deposited data

How the results depend on the processing

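Genes called higher and lower numbered 0 and 0 with edgeR. They numbered 1114 and 487 with DESeq2, 0 and 4 without a filter, 0 and 1 with at least 10 counts in every library, and 1 and 5, 1 and 3, and 1 and 7 with limma at 0.1, 0.01 and 1 added to FPKM. Leaving out any 1 library gave 0 to 0 in both directions. The median log2 fold change of the members, -2.66, was -1.07 over the 5 members with at least 10 counts in every library. With limma at 0.01 and 1, which fitted 7 members, it was -3.37 and -1.40. Leaving out 1 library gave -4.16 to -2.14. The lowest value came without null replicate 3 and the highest without null replicate 1. The list of other nonclassical genes had medians of -1.37 to -0.59 leaving out 1 library. The classical genes had -1.45 with at least 10 counts, -1.70 with limma at 1, and -3.71 to -2.89 leaving out 1 library. Assembly and loading genes had -0.11, -0.11 and -0.07 with limma at 0.1, 0.01 and 1, and -1.25 to -0.19 leaving out 1 library, lowest without wt replicate 1. Transcription and interferon genes had 1.02, 1.04 and 0.81 with limma and 0.43 to 0.59 leaving out 1 library. Genes of the region outside the family had 0.31, 0.31 and 0.30 with limma, a change of sign, and -0.43 to -0.07 leaving out 1 library. With limma, fitted to 11888 genes, the median of all genes was 0.61, 0.62 and 0.50 against 0.29. In null replicate 3, TMM scaling left 1 of the 2 members past 2-fold higher.

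Replicate numbers are shared by both groups, but no label says that they mark a shared batch. Deviations from the group mean in libraries of the same number had correlations of -0.121 for replicate 1 and -0.115 for replicate 2 (13217 genes). The deviations of the 2 wt libraries mirror each other and also carry the TSH difference. These values therefore cannot decide whether the numbers mark a batch. With the replicate number as a block, the median of the members was -4.54 and that of the other nonclassical genes -1.50, and edgeR called 0 genes in either direction.

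Among single members, H2-T22 changed sign in 3 of 12 refits of that gene (without wt replicate 1, without null replicate 3, and with the block). H2-T24 did so in 2 of 9 (without null replicate 3 and with the block). The block refit and the refit without null replicate 3 are not separate checks, since both rest on null replicates 1 and 2. No refit changed the sign of the other 7, whose log2 fold changes ranged from -4.59 to -2.94 for H2-T10, -1.42 to -0.52 for H2-T23, -4.54 to -2.81 for H2-Q1, -5.96 to -1.91 for H2-Q2, -2.63 to -1.40 for H2-Q4, -5.41 to -0.76 for H2-Q7 and -8.66 to -2.26 for Gm8909. Summing counts over the H2-T genes (-0.83), the H2-Q genes (-2.31) or all 10 (-1.04) in place of single genes gave negative values, opposite in sign to H2-T22 and H2-T24 and nearer to 0 than H2-T10. With 2 wt and 3 null libraries and a few counts per null library, the size of the difference is poorly fixed for H2-Q1, H2-Q2, H2-Q7 and Gm8909.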
